A study of Mus musculus with 35 samples.

Results

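LRP1 and 7 other genes of scavenging and engulfment were followed in microglia of the mouse midbrain, striatum and prefrontal cortex (PFC). The genes were taken by symbol: Lrp1, Cd36, Scarb1, Msr1, Stab1, Itgav, Itgb5 and Elmo1. All 8 were among the 21236 genes of the table of counts, from which genes with low expression had been removed before deposit. The mean of Cd36 was above 1 CPM (counts scaled to library size) in the midbrain and below it in the striatum and PFC.

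The samples were 35 RNA libraries from 12 adult mice, with 6 males and 6 females for the midbrain, 6 and 6 for the striatum, and 5 males and 6 females for the PFC. Every mouse carried Tmem119-2A-CreERT2 and Ai14(RCL-tdTomato)-D and received tamoxifen, so no group lacked the reporter or the drug. The Cre recombinase was driven from the Tmem119 locus, and the cells with tdTomato were collected by fluorescence-activated sorting, so cells were selected by that reporter. The study asked how transcripts of microglia differ by brain region and by sex.

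LRP1 is a very large endocytic receptor for lipoproteins that takes up many ligands, among them apolipoprotein E and protease complexes, and it also takes part in the clearance of dying cells. CD36, SR-BI (Scarb1), MSR1 and stabilin-1 (Stab1) are scavenger receptors, which bind modified lipoproteins and other polyanionic or lipid ligands. Integrin αvβ5 (Itgav and Itgb5) holds on to apoptotic cells through the bridging protein MFG-E8, and ELMO1 works with DOCK180 to activate Rac while a particle is engulfed. Microglia are the resident phagocytes of the brain, and clear dead cells, synapses and debris there.

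Total counts ran from 37680501 to 54131421 per library, so 3 counts correspond to 0.0561 to 0.0789 CPM. The scaling used TMM factors (which set library sizes so that most genes do not differ). A list of 14 microglial markers, Tmem119 and P2ry12 among them, summed to 46860 to 54010 CPM in the midbrain, 50500 to 60090 in the striatum and 48490 to 57290 in the PFC. One midbrain library, from female mouse 6, stood apart in markers of border macrophages, at 136 CPM for the sum of 9 transcripts against 2.65 to 21.4 in the other midbrain libraries. One column named for the PFC belongs, by its label, to the striatum of mouse 3, and it was used as striatum. Values without each of these libraries stand beside the results they change. The number in a title was taken as the mouse, so that regions could be compared within mice.

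Brain region had an effect on 4 of the 8 genes (Lrp1, Stab1, Cd36 and Msr1; edgeR's quasi-likelihood test, adjusted p under 0.05), where 8.89% of all genes tested were called. Lrp1 and Stab1 were highest in the striatum. Cd36 and Msr1 were highest in the midbrain, at low levels. Scarb1, Itgav, Itgb5 and Elmo1 were not called, although Elmo1 had an unadjusted p of 0.0357 in that test by edgeR. In the fit that blocked on mouse instead of modelling sex, Scarb1 was called as well (adjusted p = 0.0448), and the values for Elmo1 and Itgb5 were 0.0504 and 0.0616.

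A pair of regions was called, after the study's rule, where the region effect was called, the unadjusted p of the pair was under 0.05 and the fold change was over 1.2. In the striatum against the midbrain, 2 of 8 genes were higher (3.50% of all genes) and 2 were lower (2.98%). In the PFC against the midbrain, 1 was higher (2.75%) and 2 were lower (3.24%). In the striatum against the PFC, 3 were higher (2.31%) and none was lower (0.833%). The median log2 fold change over the 8 genes was 0.11 for the striatum against the midbrain, -0.12 for the PFC against the midbrain and 0.29 for the striatum against the PFC, where the medians over all genes were 0.01, 0.01 and 0.01.

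**Figure D1:**
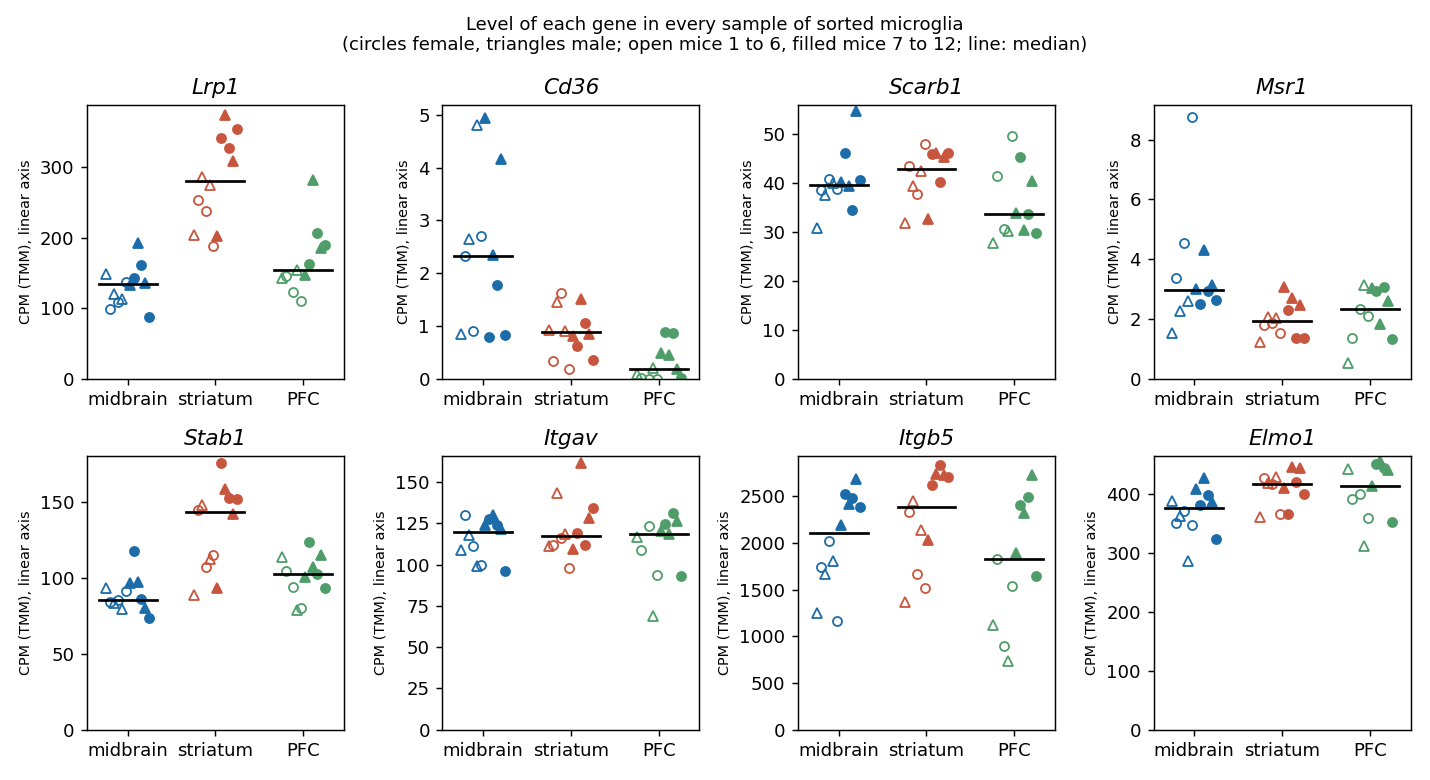
CPM (TMM, linear axis from 0) of each of the 8 genes in all 35 samples by region, with circles for females, triangles for males, open symbols for mice 1 to 6, filled symbols for mice 7 to 12 and a line at the median of the region. Lrp1 and Stab1 sit highest in the striatum, Cd36 is spread widely in the midbrain and close to 0 in the PFC, and Itgb5 is lowest in mice 1 to 6.

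Lrp1 (ENSMUSG00000040249) lies on the minus strand of chromosome 10 of GRCm38, from 127538161 to 127621148, and its longest transcript in GENCODE M21 has 14888 bases. In the midbrain its level ran from 88.1 to 192 CPM with a median of 134. In the PFC it ran from 110 to 282 CPM with a median of 154, and in the striatum from 188 to 374 CPM with a median of 280. The striatum stood above the highest midbrain library in 11 of its 12 libraries, and 6 of 12 stood above the highest PFC library. The PFC overlapped the midbrain, with 2 of 11 libraries above its highest value.

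The mean level of Lrp1 was 132 ± 28.7 CPM in the midbrain (SD, n = 12), 168 ± 47.4 in the PFC (n = 11) and 279 ± 63.3 in the striatum (n = 12). Lrp1 in the striatum was 2.13-fold its level in the midbrain, a log2 fold change of 1.09 ± 0.13 (SE) with an adjusted p of 1.21e-06. Within mice the striatum was above the midbrain in 12 of 12, by 1.36-fold to 4.01-fold. Against the PFC the striatum was 1.66-fold higher (log2 0.73 ± 0.14, adjusted p = 0.00472), in 11 of 11 mice and by 1.33-fold to 2.09-fold.

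The step from midbrain to PFC was smaller for Lrp1. It was called by the study's rule at 1.28-fold (log2 0.36 ± 0.13), but its p adjusted over all genes was 0.118, and 9 of 11 mice were higher in the PFC, with mice 1 and 6 lower. In mice 1 to 6 alone it was 0.17 on the log2 scale and was not called, against 0.46 in mice 7 to 12. The labels do not say whether these sets of mice were handled apart. The striatum against the midbrain held in both sets, at 0.99 and 1.16 on the log2 scale.

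**Figure D2:**
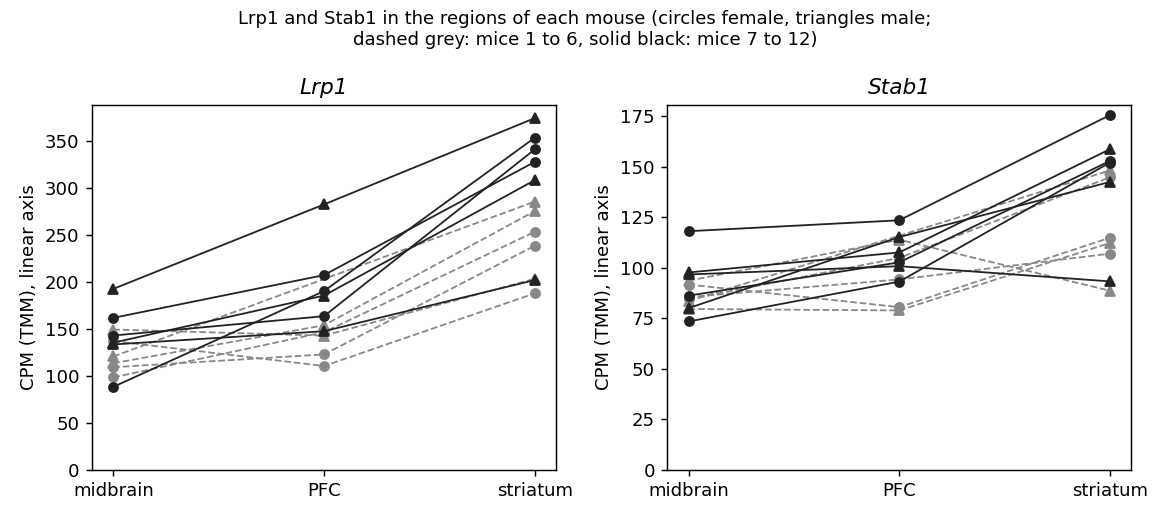
CPM (TMM, linear axis from 0) of Lrp1 and Stab1 in the midbrain, PFC and striatum of each mouse, joined by a line per mouse (circles female, triangles male, dashed grey mice 1 to 6, solid black mice 7 to 12; the line of mouse 3 skips the PFC, which has no library). Every Lrp1 line ends highest in the striatum, and the Stab1 lines of mice 1 and 7 end below their PFC values.

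The median sums of astrocyte and neuronal markers were also lower in the midbrain than in the other regions. The 10 astrocyte markers on the list, all in the table, summed to 221 to 287 CPM in the midbrain, 279 to 515 in the striatum and 272 to 580 in the PFC, with Gfap, Aqp4 and Sox9 each at 0 in 1 library. The 17 neuronal markers in the table, of 20 listed, summed to 6.71 to 12.8 CPM in the midbrain, 15.4 to 31.6 in the striatum and 17.1 to 50.2 in the PFC. The 12 oligodendrocyte markers summed to 307 to 522 CPM in the midbrain, 303 to 895 in the striatum and 232 to 539 in the PFC, and the 9 endothelial markers to 12.3 to 48.9, 25.9 to 72.6 and 18.8 to 46.3, with overlap between all regions. In the order midbrain, striatum and PFC, the median sums were 249.5, 406.1 and 355.9 for astrocytes and 416.3, 468.7 and 298.7 for oligodendrocytes. They were 31.22, 39.91 and 32.65 for endothelium and 11.55, 21.07 and 25.13 for neurons. The striatum was thus highest for each list but the neuronal one, which was highest in the PFC. As a description over the 35 libraries, r with Lrp1 ran from 0.0967 (Gfap) to 0.787 (Clu) for single astrocyte markers. It ran from 0.297 (Mbp) to 0.666 (Mal) for oligodendrocyte markers and from 0.268 (Kdr) to 0.521 (Pecam1) for endothelial ones. Neuronal markers ran from -0.395 for Th, which was at 0 in 25 libraries, to 0.586 for Ppp1r1b. The 14 microglial markers ran from -0.139 (Olfml3) to 0.737 (Csf1r), so high values of r with Lrp1 were not confined to markers of other cells. An index of 31 markers of astrocytes, oligodendrocytes, neurons and endothelium had r = 0.744 with Lrp1 over the 35 libraries and r = 0.544 with Stab1, which is a description over libraries that share regions and mice. With that index as a covariate Lrp1 was 0.77 on the log2 scale for the striatum against the midbrain (adjusted p = 7.15e-05), 0.48 against the PFC (0.0984) and 0.30 for the PFC against the midbrain (0.0808), and all 3 pairs were still called by the study's rule. In such bulk samples, fewer cells of a type and less RNA per cell cannot be told apart.

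Lrp1 is also a long transcript, and the share of long transcripts called higher in the striatum was above that of all genes. Of 406 genes with a mean of at least 8 CPM and a transcript of at least 8 kb, 8.87% were called higher in striatum than midbrain, against 3.67% of all 8601 genes of that level. The 8 members were left out of the 406, and Lrp1 set against them by this difference had a rank of 3. With the median level of the long transcripts, less that of all 8601 genes, as a covariate Lrp1 was 0.97 on the log2 scale for this pair (adjusted p = 3.78e-06). The longest transcript of Stab1 has 7999 bases, just under the limit of 8 kb. This index had r = 0.518 with Stab1 and 0.486 with Lrp1 over the 35 libraries. With the index as a covariate the region effect had an adjusted p of 0.000307 for Stab1 and 0.0561 for Msr1 in edgeR, so Msr1 was not called.

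Stab1 (ENSMUSG00000042286, chromosome 14 minus strand, 31139013 to 31168641) codes for stabilin-1, a scavenger receptor of macrophages and sinusoidal endothelium. Its level ran from 73.3 to 118 CPM in the midbrain with a median of 85.8, from 78.8 to 123 in the PFC with a median of 103, and from 88.5 to 176 in the striatum with a median of 144. The groups overlapped, and the low striatal values came from mice 1 and 7.

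Stab1 in the striatum was 1.49-fold its level in the midbrain (log2 0.57 ± 0.10, adjusted p = 0.000127), in 10 of 12 mice. Against the PFC it was 1.31-fold higher (log2 0.39 ± 0.10) in 9 of 11 mice, with an adjusted p of 0.0542. The PFC against the midbrain was not called (0.18 ± 0.10, adjusted p = 0.35). In mice 1 to 6 alone no region effect was called for Stab1 (adjusted p = 0.079), while the striatum against the midbrain was 0.46 on the log2 scale there and 0.66 in mice 7 to 12. With the index of other brain cells as a covariate, the striatum against the midbrain was 0.47 (adjusted p = 0.00811). Stab1 shares 112 bases of exon with Nt5dc2 on the opposite strand, and the library kit does not mark strand, so these reads cannot be told apart.

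**Figure D3:**
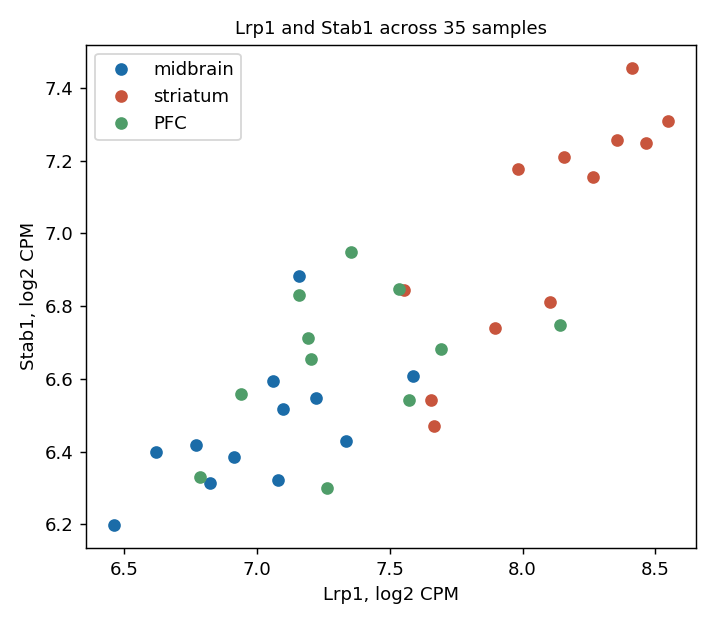
Log2 CPM of Stab1 against log2 CPM of Lrp1 in the 35 samples, coloured by region. The striatal samples reach the upper right, and r was 0.835 over all samples and 0.636 once the region means were taken out.

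The promoters of Lrp1 and Stab1, which rose together in the striatum, and of Cd36, which was highest in the midbrain, are shown for the 250 bases before a RefSeq start site on GRCm38.p6. The table of RefSeq promoters used here matched 6 of the 8 genes. All 3 genes are on the minus strand, and the sequences read 5′ to 3′ in the direction of transcription, with the matches to the motifs below in capitals. None of the 3 windows meets an annotated exon of GENCODE M21, and the Cd36 window lies in an intron of the gene, since other transcripts of it begin farther upstream.
Lrp1, chr10:127621149-127621398: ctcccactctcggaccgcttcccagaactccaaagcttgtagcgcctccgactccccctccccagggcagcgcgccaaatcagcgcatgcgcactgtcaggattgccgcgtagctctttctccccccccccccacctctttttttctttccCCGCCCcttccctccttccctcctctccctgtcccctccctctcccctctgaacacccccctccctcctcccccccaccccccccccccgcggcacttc
Stab1, chr14:31168642-31168891: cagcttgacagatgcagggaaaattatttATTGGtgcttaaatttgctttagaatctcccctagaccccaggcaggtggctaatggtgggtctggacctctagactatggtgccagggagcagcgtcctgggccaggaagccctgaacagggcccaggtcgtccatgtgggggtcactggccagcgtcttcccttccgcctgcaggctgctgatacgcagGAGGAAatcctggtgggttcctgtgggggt
Cd36, chr5:17835897-17836146: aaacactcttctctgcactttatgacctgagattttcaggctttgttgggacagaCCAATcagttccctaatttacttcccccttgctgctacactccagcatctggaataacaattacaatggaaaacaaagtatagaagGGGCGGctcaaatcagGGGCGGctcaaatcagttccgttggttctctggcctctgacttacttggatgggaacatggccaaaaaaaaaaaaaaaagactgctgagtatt

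The motifs were searched on both strands as TATAAA for the TATA box, CCAAT for the box of that name, GGGCGG for the GC box and GAGGAA for a core of the PU.1 type, and their matches do not overlap in these windows. Lrp1 held 1 GC box, 99 bases before the start, on the opposite strand. Stab1 held 1 CCAAT box at 221 bases, also on the opposite strand, and 1 GAGGAA at 30 bases, and Cd36 held 1 CCAAT box at 195 bases and 2 GC boxes at 109 and 93 bases. Lrp1 and Stab1 shared none of these matches. Among 32851 windows of 250 bases, TATAAA was in 12.4%, CCAAT in 33.8%, GGGCGG in 32.7% and GAGGAA in 23.3%. The Lrp1 window was 76.4% C and T on the strand shown, against 48.4% for Stab1 and 49.2% for Cd36.

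Cd36 (ENSMUSG00000002944, chromosome 5 minus strand, 17781690 to 17888801), the class B scavenger receptor for fatty acids and oxidised lipoproteins, was low throughout. In the midbrain it ran from 0.786 to 4.94 CPM with a median of 2.33, or 36 to 256 counts. In the striatum it ran from 0.187 to 1.62 CPM with a median of 0.885, and in the PFC from 0 to 0.885 with a median of 0.195. In the PFC 2 of 11 libraries had no count and 4 were at or under 3 counts, and 9 of 11 were below the lowest midbrain library. A count of 0 covers counting error only, and allows up to 3 counts.

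Against the midbrain, Cd36 was lower in the PFC by -2.91 on the log2 scale, with an SE of 0.54 (adjusted p = 0.000353), in 10 of 11 mice. The striatum was lower than the midbrain by -1.40 ± 0.49 (adjusted p = 0.0721), in 10 of 12 mice, and higher than the PFC by 1.51 ± 0.53 (adjusted p = 0.195), in 10 of 11. In mice 1 to 6 the PFC against the midbrain was -5.37 on the log2 scale, where 3 of 5 PFC libraries were at or under 3 counts, and in mice 7 to 12 it was -2.12. In mice 7 to 12 alone the region effect was not called for Cd36.

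Msr1 (ENSMUSG00000025044, chromosome 8), a class A scavenger receptor of macrophages for modified LDL, ran from 1.52 to 8.76 CPM in the midbrain with a median of 2.96. It ran from 1.25 to 3.08 CPM in the striatum with a median of 1.95, and from 0.516 to 3.15 in the PFC with a median of 2.32. The groups overlapped, and the highest value, 8.76, was that of the midbrain library of mouse 6 that stood apart. Against the midbrain, Msr1 was lower in the striatum by -0.79 ± 0.24 on the log2 scale (adjusted p = 0.0366), in 11 of 12 mice, and in the PFC by -0.64 ± 0.25 (adjusted p = 0.128), in 7 of 11. Its region effect had an adjusted p of 0.0492. Without the midbrain library of mouse 6 Msr1 was not called, at -0.59 and -0.42 for these pairs, and its call was also lost without the striatal library of mouse 3 and when any of 7 mice was left out.

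Markers of border macrophages were compared with both low genes, since these cells lie beside the tissue and also carry scavenger receptors. Of 10 listed markers 9 were in the table, and they summed to 2.65 to 136 CPM in the midbrain, 4.91 to 14.8 in the striatum and 3.76 to 11.1 in the PFC. Cd163 was at 0 in 25 of 35 libraries and Clec12a in 13. Over the 35 libraries the r of the 9 markers with Cd36 ran from -0.379 for Mrc1 to 0.672 for Ms4a7, and with Msr1 from -0.13 for Cd163 to 0.533 for Clec12a, as descriptions over libraries that share regions and mice. Without the midbrain library of mouse 6 Cd36 was -2.83 in the PFC and -1.33 in the striatum against the midbrain. With an index of 8 of these markers as a covariate Cd36 was -2.61 and -1.34 and was still called, and Msr1 was -0.42 and -0.69 and was not.

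**Figure D4:**
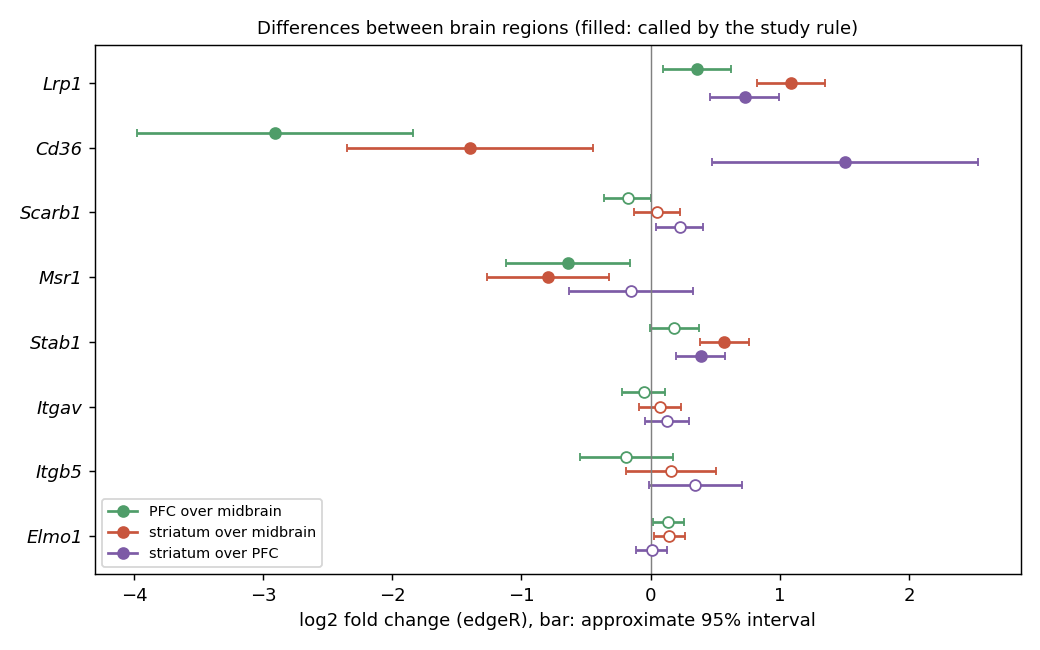
Log2 fold change (edgeR) of each gene for the 3 pairs of regions, with bars for the approximate 95% interval and filled points for pairs called by the study's rule. The called points of Lrp1 and Stab1 lie right of 0, those of Cd36 and Msr1 against the midbrain lie left of it, and the widest intervals are those of Cd36.

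Scarb1 (chromosome 5), the receptor that takes up cholesteryl ester from high-density lipoprotein, had mean levels of 40.2 ± 5.88 CPM in the midbrain, 41.6 ± 5.38 in the striatum and 35.8 ± 7.33 in the PFC (SD, n = 12, 12 and 11). The striatum against the PFC was 0.23 on the log2 scale with an interval of 0.04 to 0.41 (adjusted p = 0.301), in 9 of 11 mice. The striatum against the midbrain was 0.05, with an interval of -0.13 to 0.22.

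Itgav (chromosome 2), the αv integrin chain, had the same order of levels within narrow bounds. Its means were 116 ± 12.4 CPM in the midbrain, 122 ± 17.4 in the striatum and 111 ± 18.8 in the PFC. The striatum against the midbrain was 0.07 on the log2 scale, with an interval of -0.09 to 0.24, and the PFC against the midbrain was -0.05, with an interval of -0.22 to 0.11. Itgav shares 634 bases of exon with Gm13684 on the opposite strand, which was counted as a gene of its own.

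Itgb5 (chromosome 16), the β5 chain, was the most abundant of the 8 genes, with an SD within each region larger than the differences of the other regions from the midbrain. Its means were 2029 ± 506 CPM in the midbrain, 2262 ± 515 in the striatum and 1782 ± 669 in the PFC. The striatum against the PFC was 0.35 on the log2 scale with an interval of -0.01 to 0.71, and 10 of 11 mice were higher in the striatum. In the midbrain the libraries of mice 1 to 6 ran from 1161 to 2021 CPM and those of mice 7 to 12 from 2189 to 2687, and the sets did not overlap. They overlapped in the striatum, at 1373 to 2452 and 2038 to 2833 CPM, and in the PFC, at 740 to 1828 and 1644 to 2726 CPM.

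Elmo1 (chromosome 13) had means of 369 ± 38.4 CPM in the midbrain, 408 ± 29.8 in the striatum and 406 ± 47.96 in the PFC. The PFC was 1.10-fold above the midbrain (log2 0.14 ± 0.06, adjusted p = 0.22), in 11 of 11 mice, by 1.01-fold to 1.18-fold. The striatum was 1.11-fold above the midbrain (log2 0.15 ± 0.06, adjusted p = 0.144), in 10 of 12 mice. Neither reached the fold of 1.2 or the region threshold. In the fit with the mouse as a block the striatum against the midbrain had an adjusted p of 0.0348.

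Levels between genes were compared per kilobase of exon. The length was that of all annotated exons of a gene together, which can exceed its longest transcript. It was 8500 bases against 3093 for Scarb1, 12580 against 5464 for Elmo1, 6344 against 3636 for Msr1 and 17717 against 14888 for Lrp1. How far Scarb1 lies below Lrp1, Itgav and Stab1 depends on the length used, and the order of genes close in level can too. Over the 35 libraries Itgb5 was at 572 ± 164 CPM per kb, Elmo1 at 31.3 ± 3.35, Lrp1 at 10.9 ± 4.50, Itgav at 10.8 ± 1.53, Stab1 at 10.5 ± 2.59, Scarb1 at 4.63 ± 0.768, Msr1 at 0.404 ± 0.217 and Cd36 at 0.342 ± 0.361. The ranges of 1 SD overlapped for Lrp1, Itgav and Stab1, and for Msr1 and Cd36, when the regions were pooled, but the order of the levels changed by region. In the midbrain Lrp1 was at 7.43 ± 1.62 CPM per kb, below Itgav at 10.8 ± 1.16, with Stab1 at 8.66 ± 1.13 between them. In the striatum Lrp1 was at 15.8 ± 3.57, above Stab1 at 12.9 ± 2.73 and Itgav at 11.4 ± 1.62, with ranges of 1 SD that overlapped. In the PFC Cd36 was at 0.0816 ± 0.0938, below Msr1 at 0.349 ± 0.136, while in the midbrain Cd36 was at 0.674 ± 0.425 and Msr1 at 0.545 ± 0.294. The order of Cd36 and Msr1 in the midbrain rests on the exon length used, and their ranges of 1 SD overlapped there. The spread over the libraries was widest for Cd36, at a coefficient of variation of 106%, and narrowest for Elmo1, at 10.7%.

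No difference between males and females was called for any of the 8 genes. Of all genes 4.13% were called over all regions, and 4.84% within the midbrain, 2.28% within the striatum and 5.29% within the PFC. Of the 8 genes, 0 had an unadjusted p under 0.05 in edgeR in any of these, with no fold minimum. At that threshold all genes numbered 1704 over all regions, and 1172, 581 and 1264 within the midbrain, striatum and PFC. The region by sex interaction called 0 of the 8 and 0% of all genes at an adjusted p under 0.05, and 632 genes at an unadjusted p under 0.05. DESeq2 called 0 of the 8 in each of these, and limma-voom with the mouse as a random effect called 1, Cd36, over all regions and in the midbrain, where it called 566 and 874 of all genes. Cd36 was 0.60 on the log2 scale in males over females, with an interval of -0.21 to 1.41, and in the midbrain it was 1.55 ± 0.836 CPM in females and 3.29 ± 1.62 in males (SD, n = 6 each; adjusted p = 0.998). For Lrp1 the interval of males over females was -0.09 to 0.33, and for Stab1 it was -0.21 to 0.10.

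The other genes of these pathways were taken from lists of 70 genes, of which 64 were in the table. Region was called for 12 of the 64, against 8.89% of all genes tested. In the striatum against the midbrain 5 were higher and 5 lower, against 3.50% and 2.98% of all genes. In the PFC against the midbrain 3 were higher and 6 lower, against 2.75% and 3.24%. In the striatum against the PFC 5 were higher, against 2.31%. With the mouse as a block 9 were called for this pair, and that fit called 1032 of all 21236 genes for it. Of 7 chaperones and adaptors of LRP1, none was called for a pair of regions in the main fit. With the members among them included, 1 of 9 soluble ligands was called, of 17 scavenger receptors 6, of 7 integrin and bridging genes 2, of 6 phosphatidylserine receptors 2, and of 15 genes of ELMO and DOCK signalling 1. The counts for scavenger and phosphatidylserine receptors hold Stab1 in common.

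By level and size of change, 5 genes of the lists were named. Lpl, lipoprotein lipase and a ligand of LRP1, was at 28.8 ± 7.88 CPM in the midbrain, 15.9 ± 5.92 in the striatum and 5.34 ± 2.42 in the PFC (SD). It was lower in the PFC than in the midbrain by -2.43 ± 0.24 on the log2 scale (adjusted p = 5.91e-09) and in the striatum by -0.85 ± 0.22 (adjusted p = 0.0139). Cd68, a lysosomal protein of phagocytes, rose from midbrain to striatum, at 1200 ± 90.9 against 934 ± 69.02 CPM (log2 0.36 ± 0.06, adjusted p = 3.14e-05). In mice 1 to 6 alone it was 0.32 on the log2 scale and not called.

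Itgb3, which pairs with αv in another engulfment integrin, was lower in the PFC at 34.5 ± 7.56 CPM against 45.6 ± 4.85 in the midbrain (log2 -0.40 ± 0.10, adjusted p = 0.00932) and 48.4 ± 7.99 in the striatum. Mfge8, the bridge between αv integrins and phosphatidylserine, also rose from midbrain to striatum, at 64.2 ± 14.6 against 46.7 ± 3.71 CPM (log2 0.46 ± 0.11, adjusted p = 0.00856), but with the index of other brain cells as a covariate it was 0.10 and not called, nor was it called without mouse 2 or mouse 10. Snx17, the sorting nexin that returns LRP1 to the cell surface, had a region effect (adjusted p = 0.000608) with 317 ± 15.0 CPM in the midbrain and 379 ± 31.9 in the PFC. That is 0.26 on the log2 scale, which was just under the fold of 1.2 that a call for a pair needed. The pair was called in mice 1 to 6 alone (0.30), without mouse 3 or mouse 8, and with scaling by library size only. It was also called with the index of other brain cells or of long transcripts as a covariate.

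A further 6 called genes of the lists are given by their means, although they fell under the level set for naming. Over the midbrain, Lrp4 and Lrp5 were higher in the striatum by 0.71 and 0.76 on the log2 scale, at 4.31 and 5.06 CPM in the striatum. Scara3 was higher there by 3.02, at 1.41 CPM against 0.18. Olr1, the receptor for oxidised LDL, was at 1.76 CPM in the midbrain and 0.274 in the PFC, Cd300lf at 3.46 and 1.23, and Ptk2 at 9.20 and 6.48. The study kept genes that reached 1 CPM in at least 1 group of region and sex. Scara3 in the midbrain and Olr1 in the PFC were below that level. Both genes can thus be in the table only through the regions where they were high, and both count among the 12 called for region. Olr1 was also the single gene called for sex, higher in males by 0.94 on the log2 scale but not past an adjusted p of 0.05, and not called without mouse 2.

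The genes most like each member were found by Pearson's r of log2 CPM over the 35 libraries, among 8622 other genes with a mean of at least 8 CPM, as a description. Lrp1 was most like Gcn1l1 (r = 0.909), Zfhx3 (0.892) and Soga1 (0.886), and with region means taken out these were 0.806, 0.75 and 0.825. Stab1 was most like Gcn1l1 (0.913), Lrp1 (0.835) and Abcc3 (0.823). Itgb5 was most like Gm38317 (0.983), Lemd2 (0.955) and Clstn1 (0.944), and Itgav like Adam10 (0.818), Snx18 (0.803) and Mlec (0.797). Elmo1 was most like Inpp5d (0.79), Atf7ip (0.785) and Ubqln1 (0.776), and Scarb1 like Ddx31 (0.667), Mars (0.665) and Ckap4 (0.626). Cd36 and Msr1 were below the level needed. Among the members, Itgav and Elmo1 had r = 0.682 and Itgav and Itgb5 r = 0.616.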

How the data were processed

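RNA was measured in 35 libraries of tdTomato-positive sorted cells, made with a full-length cDNA kit and a tagmentation kit, neither of which marks strand. The authors trimmed paired reads (Trimmomatic), aligned them to GRCm38 (HISAT2), counted them on Ensembl genes, removed genes with low expression and deposited raw counts without normalization. The counting tool and the treatment of multiply mapped reads are not given in the sources used here, so genes with near-identical copies are uncertain.

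Symbols came from GENCODE M21, for 21103 of 21236 genes. Fits used edgeR 4.0.16 in R 4.3.3 (TMM, robust quasi-likelihood F-test) on all genes and all 35 samples. Region, pairs and sex came from a model of region and sex, and sex within regions and the interaction from a model with 6 group means. Sex was called at an unadjusted p under 0.05 and a fold over 1.2, and adjusted p-values (Benjamini-Hochberg) are over all genes. The SE of a log2 fold change is its size divided by the root of F, and intervals are normal approximations at 95%. Log2 CPM used a prior count of 2. The fits were tested on simulated data. Total counts per sample were 37680501 to 54131421. Plots were drawn with matplotlib.

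Samples of the same mouse number deviated together, at a mean r of 0.347 for 34 library pairs (32 over 0.1), against -0.0675 over 170 pairs of other mice of the same sex. Of those, the 68 pairs within mice 1 to 6 or within mice 7 to 12 had a mean r of 0.167 (43 over 0.1). The group means of region and sex were taken out first. With a positive r within mice, that step alone tends to make the mean over other mice negative. The value of -0.0675 is thus not an independent comparison. The pairing rests on the number in the titles, 12 numbers for 12 mice, each of one sex.

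Named genes were the 8 members, up to 4 per list among the other genes with a called region effect and a mean of at least 8 CPM, by largest change, and 3 per member by likeness. The members, lists, rule and the split into mice 1 to 6 and mice 7 to 12 were chosen with earlier results of these data known. Alternatives were DESeq2 1.42.0, limma-voom (limma 3.58.1) with the mouse as a random effect, other scalings and filters, the mouse block, mice 1 to 6 and mice 7 to 12 alone, each mouse left out, marker and length indices as covariates, and other thresholds. The fit without the midbrain library of mouse 6 was chosen after seeing the data. Lrp2, Marco, Scara5, Itgb6, Timd4 and Havcr1 were on the lists and were not analysed here. The result of 1 gene on the lists is not reported here.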

Additional observations from a re-analysis of the deposited data

Results flagged for a closer look

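In the PFC of males the library of mouse 5 was far below the other 4 for a pair of genes. Its level of Itgav was 68.9 CPM, where the next library was at 117, and its level of Elmo1 was 311 CPM, where the next was at 413. Of 48 groups of a gene, region and sex compared in this way, 2 held such a library, and chance alone gives about 2.4.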

How the results depend on the processing

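Over the 3 pairs of regions, the 8 genes gave 621 values under the alternatives, of which 578 kept their direction and their side of the threshold, 34 lost a call and 9 changed sign. Every lost call was of Msr1, Cd36, Stab1 or Lrp1, and no called value changed sign. Lrp1 in the striatum stayed called against both other regions under every alternative, as did Cd36 in the PFC against the midbrain except in mice 7 to 12 alone. With each mouse left out in turn, Lrp1 in the striatum against the midbrain ran from 1.001 to 1.134 on the log2 scale. The filter of 10 counts in every sample left Cd36 out of the test.

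Of the 8 genes, mice 1 to 6 alone gave 2 region calls, 1 for the PFC and 2 for the striatum against the midbrain, and mice 7 to 12 alone gave 2, 1 and 2. Over all genes these were 512, 397 and 411 in mice 1 to 6, and 1183, 905 and 1007 in mice 7 to 12. The main fit called 1888 of all genes for region. An adjusted p under 0.05 with no fold minimum gave 1 for the PFC against the midbrain and 1 for the striatum against the PFC, and 1385 and 121 of all genes. For sex, limma-voom gave 1 over all regions and 1 in the midbrain (Cd36 in both), mice 1 to 6 gave 1 in the midbrain and 2 in the PFC, mice 7 to 12 gave 1 in the midbrain and 1 in the striatum, and the border macrophage index gave 1 in the midbrain. Of all genes, limma-voom called 566 and 874 in these comparisons, and mice 1 to 6 called 950 and 1484. Mice 7 to 12 called 1132 and 547 of all genes, and the border macrophage index 1085. Leaving out each mouse gave 0 to 1 sex calls in the midbrain (Msr1 without mouse 9) and 0 to 1 in the PFC (Scarb1 without mouse 4, 11 or 12).

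Of the 64 other list genes, limma-voom called 19 for region and 13 for the striatum against the PFC. Over all genes it called 3000 and 1226, where the main fit called 1888 for region and 490 higher and 177 lower for that pair. Mice 1 to 6 called 3 for region, 3 for the PFC and 2 for the striatum against the midbrain, 2 for the striatum against the PFC and 5 for sex, and mice 7 to 12 called 3 for the striatum against the PFC and 5 for sex. Among all genes, mice 1 to 6 called 512, 397, 411, 279 and 1114 for these, and mice 7 to 12 called 394 and 1032. For the striatum against the PFC, the filter of 10 counts gave 3, the other brain cell index 3, the adjusted p 2 and the replicate block 9. These fits called 429 (of 12169 genes left by the filter), 360, 121 and 1032 of all genes for that pair. For sex the list counts were 0 (filter), 2 (index) and 0 (adjusted p), and no fold minimum gave 2. Among all genes these were 456, 946, 72 and 1704, against 878 in the main fit. Leaving out each mouse gave 1 to 3 for sex, and leaving out the midbrain library of mouse 6, chosen after seeing the data, gave 2. All genes called for sex numbered 809 to 1018 with a mouse left out and 847 without that library. Among the 8 genes the replicate block on the mouse added the region call of Scarb1 and changed no pair call. That fit called 2977 of all genes for region. The causes of these changes were not tested, beyond there being fewer samples or genes.

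Values that changed sign were close to 0 and not called in any fit, except Mfge8, which is called in the striatum against the PFC. In mice 7 to 12, Scarb1 was -0.00107 for the striatum against the midbrain and Elmo1 -0.042 for the striatum against the PFC, and in mice 1 to 6 Mfge8 was -0.11 for the PFC against the midbrain. With the other brain cell index, the striatum against the midbrain was -0.00425 for Itgav and -0.15 for Itgb5, and the striatum against the PFC was -0.02 for Elmo1 and -0.00105 for Mfge8. With the long transcript index Elmo1 was -0.00709 for the striatum against the PFC, and with each mouse left out it ran from -0.034 to 0.036. Depth limits Cd36, whose PFC libraries held 0 to 44 counts.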
